A study of Mus musculus with 4 samples.

Results

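The kinesin genes of adult mouse cardiac endothelial cells were described here, with the motors of mitosis set against the motors of transport. Members were all non-control probes whose accession maps in RefSeq to a symbol of the form Kif or Kifc followed by a digit, with 1 probe per gene, that of the highest mean over the arrays. This gave 37 genes, with 69 probes, of 18349 genes with a symbol and a probe. By the list given in the rule, 10 of them are mitotic motors and 27 are other kinesins, and 2 mitotic motors of that list, Kif14 and Kifc1, have no matched probe. Total RNA was measured on Agilent 1-colour arrays in 2 control samples, given as wild type, and in 2 samples titled G2-EC-KO, whose genotype is given as Gata2 knock out. All 4 samples are endothelial cells (EC) isolated from adult mouse hearts, and no treatment is named. Neither the promoter that drives the deletion nor the part of Gata2 that is deleted is given in the sources used here, nor whether animals were pooled. The labels do not say that the replicates came from separate animals. The p-values measure sample-to-sample spread, which for the G2-EC-KO replicates could be technical. The controls differed in the signal of Y-linked genes, as given below.

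Kinesins are motor proteins that use ATP to walk along microtubules or to take them apart. Some of them carry vesicles, organelles and ciliary cargo through resting cells, while others build the spindle, move chromosomes and divide the cell. The genes of the mitotic motors are known to be transcribed mainly from late S phase to mitosis, so their RNA is scarce in cells that do not divide. Most endothelial cells of the adult heart are held to be quiescent.

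Levels are on the log2 scale with the 75th percentile of the array's own signal set to 0, so that a negative value lies below it. Between 63.8% and 66.5% of probes were well above background on each array. The Gata2 probe read 1.85 and 2.17 in control and 2.16 and 2.46 in G2-EC-KO, with overlapping groups, and since the deleted part is unknown it does not check the labels. Of 6 probes for Y-linked genes, control replicate 2 had 6 well above background and every other array had 0. The controls therefore differ in Y-linked signal and cannot be repeats of the same RNA sample. Control replicate 2 stands apart, and results without it are given below. The defining endothelial markers Pecam1, Cdh5 and Kdr were well above background on all 4 arrays. Across all 26893 probes tested with limma, 0.00372% passed an adjusted p of 0.05, and among 13620 genes with a symbol 0.00% did. No kinesin gene passed in either direction.

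All 10 measured mitotic motors had a log2 change above 0, where 58.6% of all genes did. Their log2 changes lay between 0.57 and 1.92, with a median of 1.52, against a median of 0.043 over all genes tested. At an unadjusted p under 0.05 in the limma fit, 9 of the 10 were higher, where 6.20% of all genes were. Adjusted p-values lay between 0.387 and 0.548. Both G2-EC-KO arrays read above both control arrays at 10 of 10, against 30.7% of all genes. The log2 change was above 1 at 6 of 10, against 1.47% of all genes. Kif2c entered the fit through the G2-EC-KO arrays alone, since it was not well above background in control. With Kif2c left out, 9 of 9 were higher, 8 of them at an unadjusted p under 0.05, and with it set to its bound the median was 1.21 and 5 members were above 1. These counts describe the members and carry no test of the list.

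**Figure D1:**
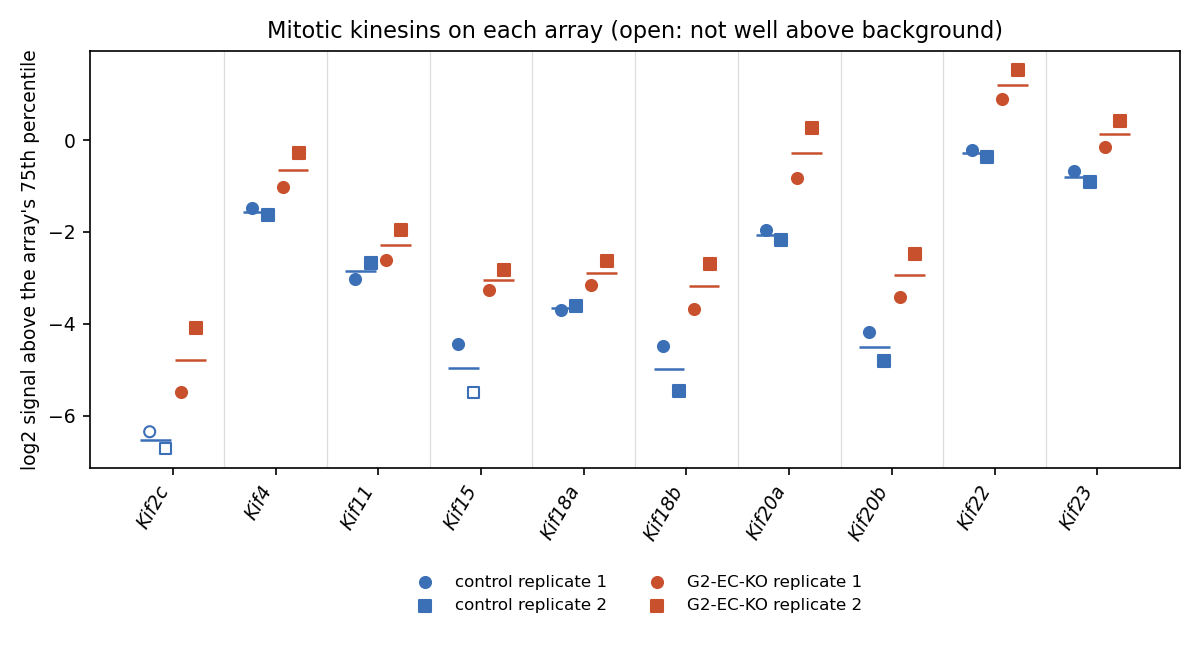
Signal of the 10 measured mitotic kinesin genes on each of the 4 arrays, as log2 above the 75th percentile of the array. Blue points are control, red points G2-EC-KO, circles replicate 1 and squares replicate 2, short lines are group means, and open points were not well above background. For every gene both red points lie above both blue points, and the red square lies above the red circle.

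The motors that build the bipolar spindle are Kif11, which slides antiparallel microtubules apart, and Kif15, which helps to keep the poles separated. Kif11 read -3.02 and -2.67 in control and -2.61 and -1.95 in G2-EC-KO, a 1.48-fold difference (log2 change 0.57, SE 0.27). Its groups were separated narrowly, by the step from control replicate 2 to G2-EC-KO replicate 1, and its 95% confidence interval ran from -0.14 to 1.28. Kif11 was the only 1 of the 10 whose interval included 0. With normexp, another background correction, its log2 change was 0.56 and that of Kif18a was 0.53, so their order was not settled. Kif15 read -4.44 and -5.50 in control and -3.27 and -2.82 in G2-EC-KO (log2 change 1.92, SE 0.39). The lower control value was not well above background, and with normexp the log2 change was 1.05, below those of Kif20a and Kif22.

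Chromosome arms are bound by Kif22 and Kif4, the chromokinesins, which push chromosomes toward the spindle equator and, for Kif4, also organise the central spindle. Kif22 read -0.20 and -0.36 in control and 0.89 and 1.54 in G2-EC-KO, 2.81-fold higher (log2 change 1.49, SE 0.24). Its control arrays lay close together and both G2-EC-KO arrays lay far above them. It had the narrowest relative error among the members with a log2 change above 1. Kif4, an X-linked gene, read -1.48 and -1.63 in control and -1.03 and -0.27 in G2-EC-KO, 1.87-fold higher (log2 change 0.90, SE 0.28). The difference from the controls was larger on G2-EC-KO replicate 2 than on replicate 1.

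Microtubule ends are shortened or restrained by Kif2c, Kif18a and Kif18b. Kif2c, which removes wrongly attached microtubules at the kinetochore, read -6.35 and -6.73 in control and -5.48 and -4.10 in G2-EC-KO. Since neither control value was well above background, its difference is given as a bound, 1.76-fold higher. The bound was computed against the lowest signal well above background on each control array. It is not a strict lower limit, since with normexp the log2 change was 0.69. Kif18a, which dampens chromosome oscillation, read -3.69 and -3.62 in control and -3.16 and -2.63 in G2-EC-KO, 1.70-fold higher (log2 change 0.76, SE 0.21). Kif18b, which acts on astral microtubules, read -4.50 and -5.48 in control and -3.67 and -2.69 in G2-EC-KO, 3.50-fold higher (log2 change 1.81, SE 0.47). Control and G2-EC-KO replicates of Kif18b spread equally widely, and the groups still did not overlap.

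Cytokinesis depends on the kinesin-6 motors Kif20a, Kif20b and Kif23, of which Kif20a brings the chromosomal passenger complex to the spindle midzone and Kif23 forms centralspindlin with Racgap1. Kif20a read -1.95 and -2.19 in control and -0.83 and 0.27 in G2-EC-KO, 3.46-fold higher (log2 change 1.79, SE 0.39). Its G2-EC-KO replicates differed by more than its controls, yet the lower of them was clear of both controls. Kif20b, which acts late in abscission, read -4.18 and -4.82 in control and -3.41 and -2.49 in G2-EC-KO, 2.93-fold higher (log2 change 1.55, SE 0.38). Kif23 read -0.67 and -0.91 in control and -0.15 and 0.41 in G2-EC-KO, 1.89-fold higher (log2 change 0.92, SE 0.23). All of these cytokinesis motors were higher in G2-EC-KO, with the smallest difference at Kif23.

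G2-EC-KO replicate 2 read above replicate 1 at 10 of 10 mitotic motors, where 54.6% of all genes did so. The median signal of the class, taken relative to the mean of the controls, was 0.12 in control replicate 1, -0.12 in control replicate 2, 1.08 in G2-EC-KO replicate 1 and 1.91 in G2-EC-KO replicate 2. Without G2-EC-KO replicate 2 the median log2 change was 1.08, and without replicate 1 it was 1.91. Without control replicate 2, the array with Y-linked signal, the median was 1.28. All 10 log2 changes stayed above 0 whichever array was left out.

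Where a mitotic motor had several probes that could be tested, they gave like values. Of the Kif20b probes, 2 gave log2 changes of 1.55 and 1.40. The remaining probe, not well above background in control, gave a bound of 2.21-fold, computed as for Kif2c. Those of Kif23 gave 0.92 and 0.99, and those of Kif4 gave 0.90 and 0.88. Of 14 tested probes of the class, 2 passed the filter through the G2-EC-KO arrays alone, the Kif2c probe and that Kif20b probe. The other 12 were all higher in G2-EC-KO without overlap. Further probes of Kif11 and Kif15 were too dim to be tested. The size of the difference at dim probes depended on the background correction: with normexp, the log2 change was 1.01 for Kif18b, 0.98 for Kif20b and 0.69 for Kif2c. Brighter members kept theirs, with 1.46 for Kif22 and 1.59 for Kif20a. With normexp the class median was 0.91.

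**Figure D2:**
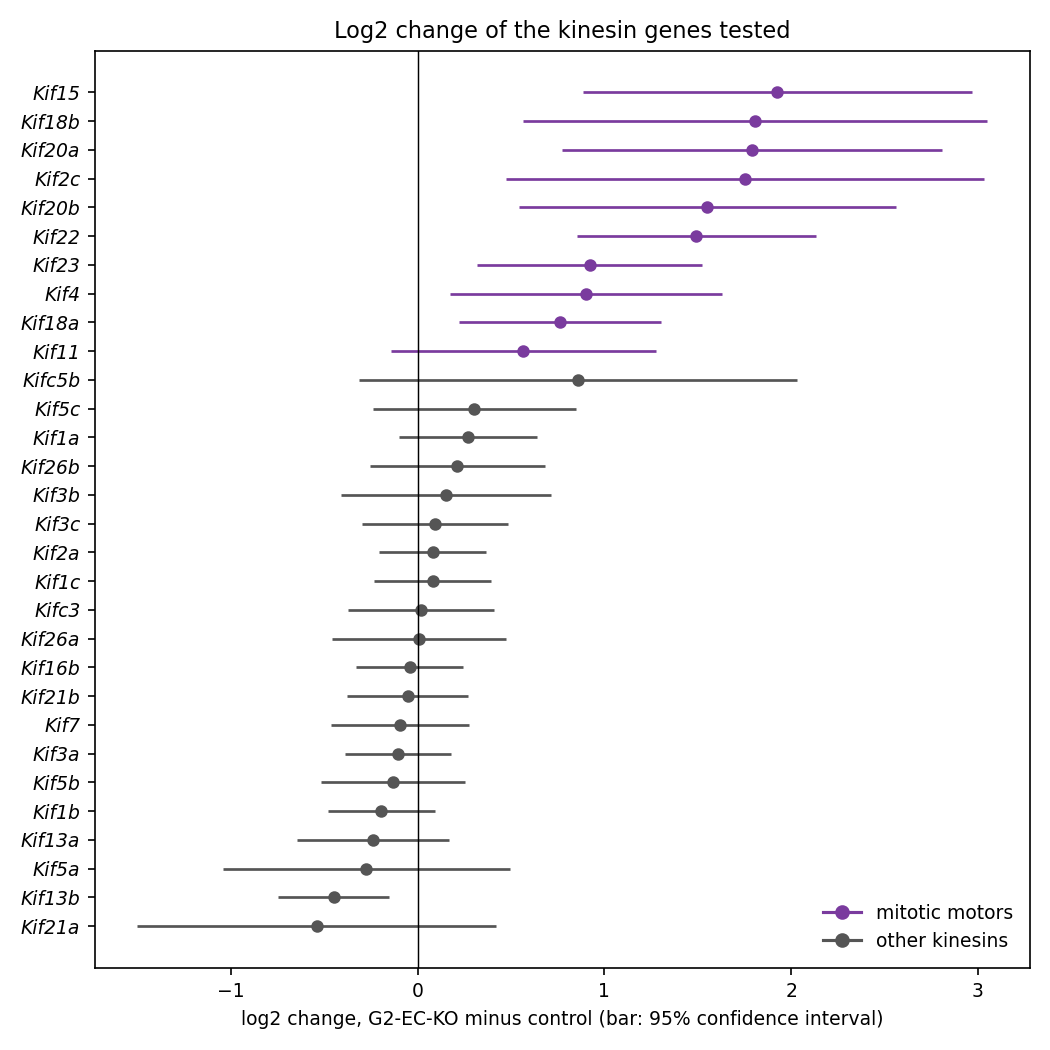
Log2 change of the 30 kinesin genes tested, G2-EC-KO minus control, with the 95% confidence interval of the limma fit as bars. Purple marks the 10 mitotic motors, whose points all lie right of 0 (Kif2c at its fitted value, not its bound), and grey the 20 other kinesins, which lie on both sides of 0.

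Since all measured mitotic motors lay in the same direction, promoters of the mitotic motors of the rule were read for motifs known from genes of late cell cycle. The cell cycle genes homology region, CHR, is bound by the MuvB complex and has the letters TTTGAA, and the CCAAT box is bound by the factor NF-Y. Both were searched on both strands, so that a match on the other strand appears as TTCAAA or ATTGG, and the motifs share no overlapping letters in the windows shown. RefSeq promoters of 300 bases, from 250 before to 50 after the start of the gene on GRCm38.p6, were found for 31 of the 37 genes with a probe. They were found for 11 of the 12 mitotic motors of the rule. These include Kif14 and Kifc1, which have no matched probe, and lack the measured Kif20a. The last 120 bases before the start are printed for 4 motors with a CHR match there, for the mitotic motor without a match, Kif18a, and for the ciliary motor Kif3a as a contrast. Capitals mark matches to either motif.
Kif22: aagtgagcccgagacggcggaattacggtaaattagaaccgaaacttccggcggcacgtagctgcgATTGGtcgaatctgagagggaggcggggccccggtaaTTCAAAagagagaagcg
Kif11: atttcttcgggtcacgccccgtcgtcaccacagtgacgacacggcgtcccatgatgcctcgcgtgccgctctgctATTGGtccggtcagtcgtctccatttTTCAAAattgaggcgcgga
Kif15: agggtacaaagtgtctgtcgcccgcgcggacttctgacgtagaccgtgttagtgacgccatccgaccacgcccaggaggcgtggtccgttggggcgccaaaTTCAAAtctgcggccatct
Kif2c: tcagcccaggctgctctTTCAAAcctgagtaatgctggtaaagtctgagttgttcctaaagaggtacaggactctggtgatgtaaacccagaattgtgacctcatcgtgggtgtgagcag
Kif18a: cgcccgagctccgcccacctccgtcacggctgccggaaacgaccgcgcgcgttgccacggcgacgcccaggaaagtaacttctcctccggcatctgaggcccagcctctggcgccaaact
Kif3a: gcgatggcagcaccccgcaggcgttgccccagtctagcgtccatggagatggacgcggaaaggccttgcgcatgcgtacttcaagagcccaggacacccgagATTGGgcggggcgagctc

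On GRCm38.p6 these windows lie at chr7:127042421-127042540 for Kif22 and chr4:117178773-117178892 for Kif2c, both on the minus strand. On the plus strand they lie at chr19:37376262-37376381 for Kif11, chr9:122950961-122951080 for Kif15, chr2:109280618-109280737 for Kif18a and chr11:53567249-53567368 for Kif3a. A CHR match was present in 10 of 11 promoters of mitotic motors (90.9%), in 4 of 26 promoters of other kinesins (15.4%) and in 17.9% of all 32851 promoters. Its first letter lay within 40 bases of the start in 8 of the 11, in 2 of 26 promoters of other kinesins and in 4.16% of all promoters. That limit was chosen after the matches were seen. A CCAAT match was present in 7 of 11, in 10 of 26 promoters of other kinesins and in 37.4% of all. Both motifs occurred together in 7 of 11, in 3 of 26 promoters of other kinesins and in 6.95% of all. Kif14 and Kifc1, which have no measured level, count among the 10 with a CHR match and among these 7. In Kif11 the CHR match began 19 bases before the start and the CCAAT match 45 bases before it, and in Kif22 the nearest matches began 17 and 54 bases before it. The 4 other kinesins with a CHR match were Kif1a, Kif26b, Kif27 and Kifc5b. A match describes the letters of the window and says nothing of binding.

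**Figure D3:**
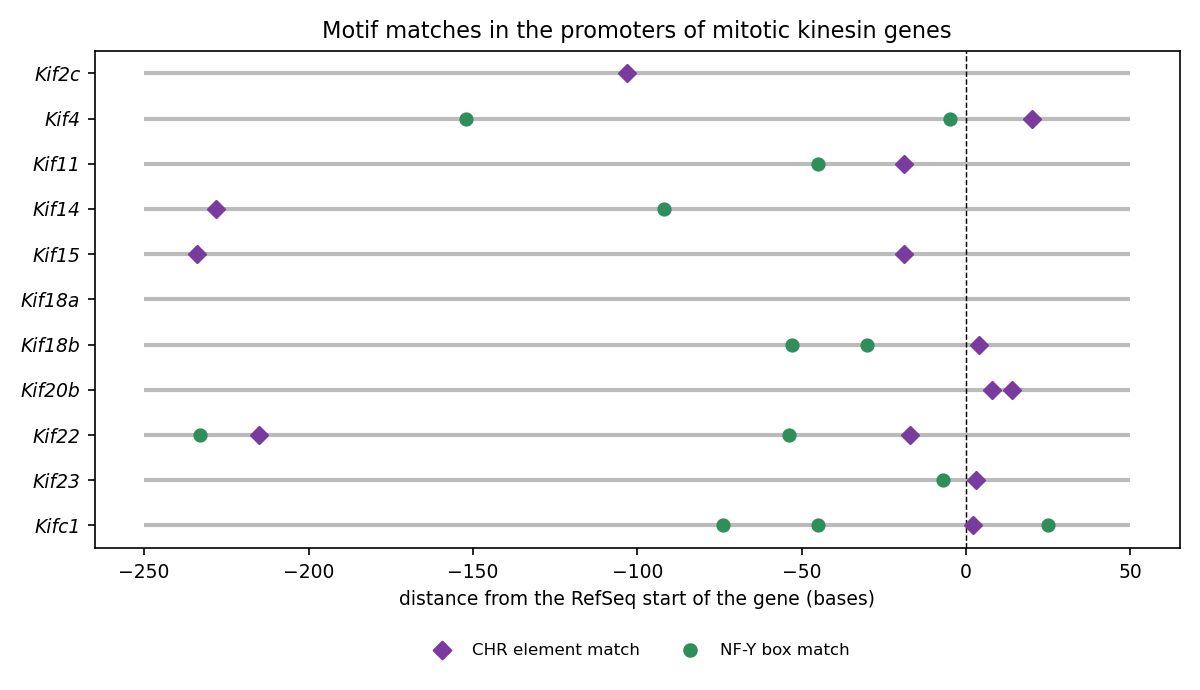
Position of CHR matches (diamonds) and CCAAT matches (circles, labelled NF-Y box) in the 300-base promoters of 11 mitotic kinesin genes, as distance in bases from the RefSeq start of the gene, marked by the dashed line. CHR matches lie within 40 bases of the start in 8 genes, and Kif18a has no match to either motif.

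The other kinesins were spread around 0. Of 27 with a probe, 20 could be tested. Of these 20, 10 were higher, against 58.6% of all genes, and 10 lower, with a median log2 change of -0.019. Groups did not overlap at 2 higher and 4 lower members, against 30.7% and 16.4% of all genes. At an unadjusted p under 0.05, 0 were higher and 1 was lower, Kif13b, where 6.20% of all genes were higher and 2.0% lower. Over all 38 tested probes of these genes, 15 were higher and 23 lower, and 4 were lower at that p against 0 higher, the Kif13b probe, 2 of Kif1b and 1 of Kif5b. Adjusted p-values lay between 0.413 and 0.992. The 95% interval included 0 for 19 of 20. For 17 of 20 it lay wholly between -1 and 1 in log2 units, while this held for 0 of 10 mitotic motors. That count depends on the width of the interval as well as on the change, and its share over all genes was not computed. The median signal of the tested genes was -0.97 for other kinesins and -2.92 for mitotic motors. A missed threshold does not show that these genes were unaltered.

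Conventional kinesin, the main carrier of organelles toward the cell edge, has the heavy chains Kif5a, Kif5b and Kif5c, of which Kif5b is the widely expressed form. Kif5b read 4.37 and 4.48 in control and 4.44 and 4.15 in G2-EC-KO (log2 change -0.13, SE 0.15). Its second probe gave -0.48 (SE 0.17), lower without overlap, so the probes differed in size and in overlap. Kif5a and Kif5c, known best from neurons, had log2 changes of -0.28 (SE 0.29) and 0.30 (SE 0.21). At the probe of highest mean, groups overlapped for each of these heavy chains.

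The kinesin-2 motors Kif3a and Kif3b carry cargo into cilia with the partner Kifap3, and Kif3c is a neuronal relative. Kif3a read -0.77 and -0.83 in control and -0.88 and -0.93 in G2-EC-KO, lower without overlap but by only 0.10 on the log2 scale (log2 change -0.10, SE 0.11). Its second probe gave 0.26 (SE 0.11), of the opposite sign. Kif3b and Kif3c had log2 changes of 0.15 (SE 0.21) and 0.092 (SE 0.15).

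The kinesin-3 motors move membrane vesicles and endosomes. Kif13b, which has been linked to delivery of the VEGF receptor to the surface of endothelial cells, read -0.73 and -0.63 in control and -1.17 and -1.10 in G2-EC-KO. Both control values lay above both G2-EC-KO values, a 1.37-fold lower level in G2-EC-KO (log2 change -0.45, SE 0.11; limma, adjusted p = 0.413). Without control replicate 1 its log2 change was -0.50, and without control replicate 2 it was -0.40. Kif1b, a carrier of mitochondria and vesicles, read 2.17 and 2.24 in control and 2.03 and 1.99 in G2-EC-KO (log2 change -0.19, SE 0.11). Of its other probes, 2 gave -0.47 (SE 0.12) and -0.41 (SE 0.11), and 1 gave 0.045 (SE 0.17). Kif13a had a log2 change of -0.24 (SE 0.15), and its further probes gave -0.22 (SE 0.13) and -0.0012 (SE 0.12). The endosome motor Kif16b had a log2 change of -0.043 (SE 0.11), Kif1c one of 0.080 (SE 0.12) and the synaptic vesicle motor Kif1a one of 0.27 (SE 0.14).

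The remaining members showed the same scatter. Kif21a had a log2 change of -0.54 (SE 0.36), which rested on G2-EC-KO replicate 2, at -4.07 against values from -3.04 to -2.96 on the other arrays, and it was -0.016 without that array. Its other probe gave -0.086 (SE 0.12). Kif21b and the Hedgehog pathway kinesin Kif7 had log2 changes of -0.054 (SE 0.12) and -0.094 (SE 0.14). Kif26a and Kif26b, which bind microtubules without moving, gave 0.0056 (SE 0.18) and 0.21 (SE 0.18), and a second Kif26a probe gave 0.23 (SE 0.14). The minus-end motor Kifc3 gave 0.017 (SE 0.15). Of 7 members that could not be tested, Kif12 and Kif24 were well above background on 1 array each, and Kif2b, Kif6, Kif9, Kif17 and Kif27 on none.

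**Figure D4:**
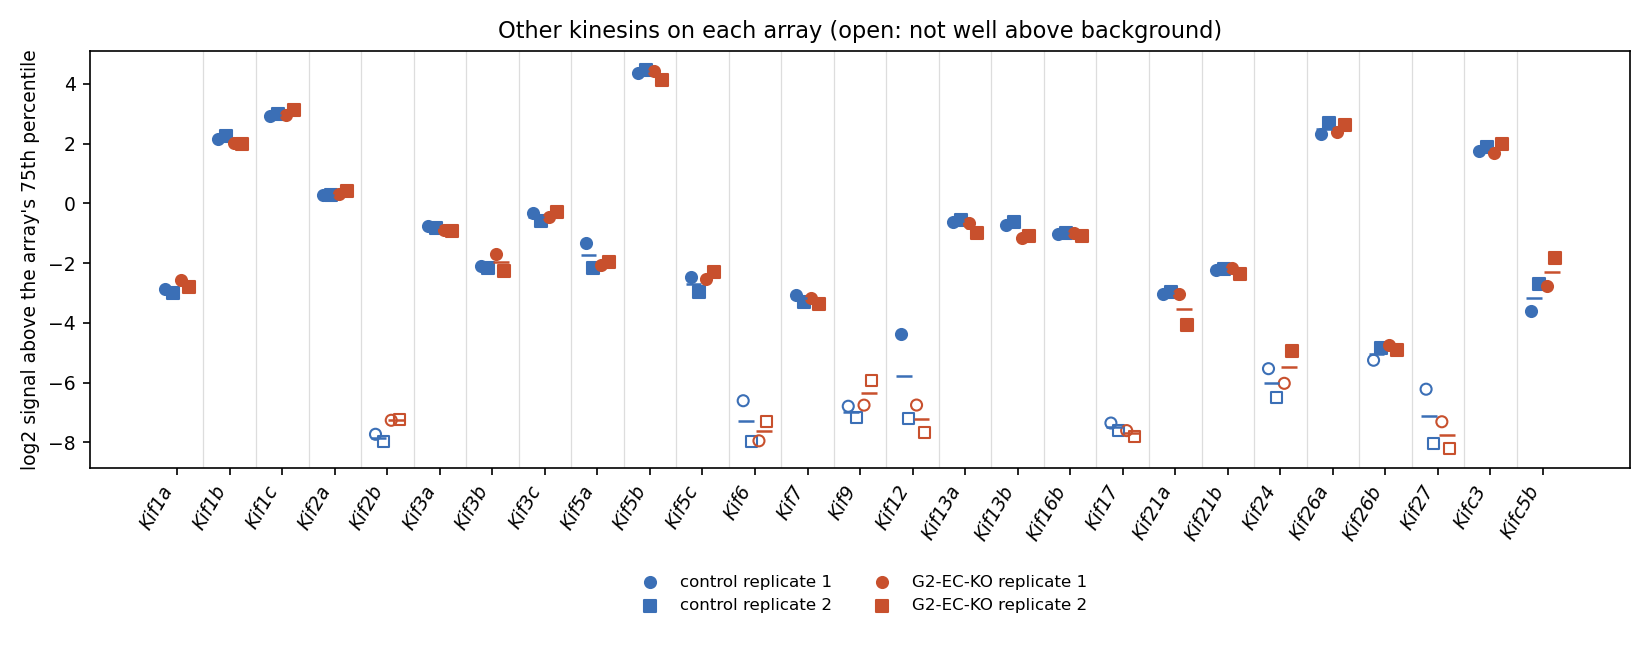
Signal of the 27 other kinesin genes with a probe on each of the 4 arrays, as log2 above the 75th percentile of the array. Colours and shapes stand for control (blue), G2-EC-KO (red), replicate 1 (circles) and replicate 2 (squares), and open points were not well above background. Most blue and red points lie at the same height, with Kif13b lower and Kifc5b spread widely.

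Within a subfamily, a mitotic motor and its relatives could differ. In kinesin-13, the bound of 1.76-fold at Kif2c stood beside a small difference at its relative. Kif2a, which shortens microtubules at spindle poles and in nerve cells, read 0.29 and 0.28 in control and 0.32 and 0.41 in G2-EC-KO (log2 change 0.081, SE 0.11). The other Kif2a probes gave 0.21 (SE 0.15) and -0.14 (SE 0.14), of opposite sign. In kinesin-4, Kif4 had a log2 change of 0.90, and Kif7, Kif21a and Kif21b lay between -0.54 and -0.054. The -0.54 is that of Kif21a, which was -0.016 without G2-EC-KO replicate 2. The difference between members of a subfamily was not tested.

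Kifc5b, a close copy of Kifc1, falls among the other kinesins by the rule, and its probe may not tell the 2 genes apart. It read -3.61 and -2.69 in control and -2.76 and -1.83 in G2-EC-KO, with a log2 change of 0.86 (SE 0.44). Control replicate 2 lay above G2-EC-KO replicate 1, so the groups overlapped. It was the highest of the other kinesins, and the remaining 19 ran from -0.54 to 0.30. The median of the mitotic motors exceeded that of the other kinesins by 1.54 in log2 units, by 1.57 with Kifc5b left out and by 0.93 with normexp. Leaving out 1 array moved this difference between 1.08 and 2.02.

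Partners of the mitotic motors were higher alongside them. Of 24 tested spindle and cytokinesis genes, 22 were higher at an unadjusted p under 0.05 and 0 lower, against 6.20% and 2.0% of all genes, with a median log2 change of 1.53. The members with the highest signal were the passenger complex genes Incenp (0.98, SE 0.19), Birc5 (1.69, SE 0.37) and Cdca8 (1.79, SE 0.30) and the cyclin gene Ccnb2 (1.54, SE 0.31). Cenpe, a kinetochore kinesin whose symbol falls outside the rule, read -0.71 and -1.13 in control and 0.32 and 1.21 in G2-EC-KO (log2 change 1.68, SE 0.34). Racgap1, the partner of Kif23, had a log2 change of 1.40 (SE 0.28). The exceptions were Cit, citron kinase, at -0.051 (SE 0.12) and the checkpoint kinase gene Bub1 at 0.019 (SE 0.13). Of 11 tested proliferation markers, 9 were higher at the same threshold, with a median of 0.96, among them Mki67 at 1.54 (SE 0.27) and Mcm6 at 0.62 (SE 0.13). Pcna was at -0.061 (SE 0.13) and Mcm3 at 0.17 (SE 0.13). Smallest adjusted p-values were 0.387 in both lists. CHR matches were found in 14 of 22 promoters of the spindle list.

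Partners of the transport motors were described in the same way, and their difference from the mitotic partners was not tested. Of 18 tested kinesin light chains and cargo adaptors, 0 were past an unadjusted p of 0.05, where 6.20% of all genes were higher and 2.0% lower. For a list of this size that count lies close to the share of all genes. Of the 18, 10 were higher, against 58.6% of all genes, and 8 lower, with a median log2 change of 0.011. Of the 10, Mapk8ip2 passed the filter through the G2-EC-KO arrays alone. Klc1 and Klc4, light chains of conventional kinesin, had log2 changes of 0.097 (SE 0.10) and -0.30 (SE 0.17), and those of Klc2 and Klc3 were -0.22 (SE 0.16) and 0.22 (SE 0.12). Kifap3 had one of 0.019 (SE 0.12) and the adaptor Mapk8ip3 one of -0.22 (SE 0.11). Among 22 genes of cytoplasmic dynein and dynactin, the motor that runs the opposite way, 18 were higher and 4 lower. Of all genes, 58.6% had a log2 change above 0, with a median of 0.043. Of the 22, 11 were higher without overlap, against 30.7% of all genes. At an unadjusted p under 0.05, 2 of the 22 were higher, against 6.20% of all genes, Dync1i1 at 0.68 (SE 0.14) and Dynlt1b at 0.57 (SE 0.15), and the median was 0.13. The light chain Dynll1 was at 0.16 (SE 0.12), the regulator Ndel1 at -0.21 (SE 0.13) and the heavy chain Dync1h1 at -0.0068 (SE 0.11). In this list 1 of 21 promoters held a CHR match, and in the adaptor list 1 of 26.

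**Figure D5:**
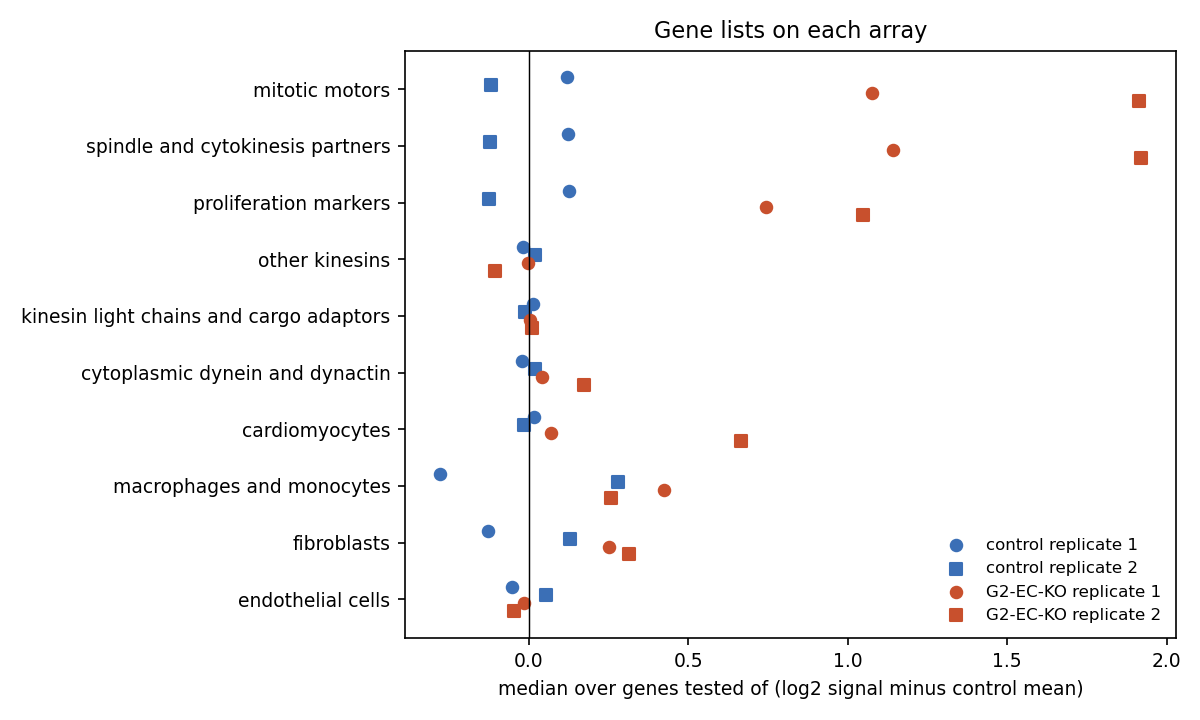
Median over the tested genes of each list of the log2 signal minus the mean of the controls, for each of the 4 arrays (blue control, red G2-EC-KO, circles replicate 1, squares replicate 2). Mitotic motors, spindle partners and proliferation markers lie between 0.74 and 1.92 on the G2-EC-KO arrays, while other kinesins and cargo adaptors lie near 0.

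Markers of other cell types also differed between the arrays. Of all 13620 genes tested, 7975 (58.6%) were higher and 5645 lower, with a median log2 change of 0.043. Cardiomyocyte markers were higher at 16 of 16 genes, with a median log2 change of 0.37 and a summed linear level of 109 to 113 in control and 118 to 166 in G2-EC-KO, in units of the array's 75th percentile. Macrophage and monocyte markers were higher at 14 of 14 (13 of 13 without Ccr2, which passed the filter through the G2-EC-KO arrays alone), with a median of 0.34 and sums of 13.1 to 18.8 and 18.1 to 20.5. Fibroblast markers were higher at 11 of 12, with a median of 0.25 and sums of 161 to 192 and 190 to 207. Erythroid and platelet markers were higher at 7 of 7 tested, with sums of 75.7 to 86.6 and 79.3 to 149, and Klf1 was not well above background on any array. Pericyte and smooth muscle markers were lower at 8 of 10, with sums of 296 to 329 and 244 to 342. Lymphocyte markers were lower at 7 of 9 tested, with a median of -0.036 and sums of 0.62 to 1.26 and 0.76 to 0.88. The lymphocyte markers Cd3g, Cd8a and Ncr1 were not well above background on any array. Neural and glial markers were higher at 5 of 10 tested, with Snap25 not well above background on any array and sums of 7.47 to 9.40 and 8.65 to 8.96. Endothelial markers themselves had a median of 0.022, with 9 higher and 7 lower. Groups overlapped at 10 of 16 cardiomyocyte, 8 of 14 macrophage, 6 of 12 fibroblast and 6 of 7 erythroid and platelet markers. They also overlapped at 9 of 10 pericyte, 9 of 9 lymphocyte, 7 of 10 neural and 9 of 16 endothelial markers. Over all genes tested, groups overlapped at 7189 of 13620.

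The cardiomyocyte and fibroblast sums were highest on G2-EC-KO replicate 2, where the mitotic motors were also highest, while the macrophage and erythroid sums were highest on G2-EC-KO replicate 1. Without G2-EC-KO replicate 2 the median log2 change of the cardiomyocyte markers was 0.071, and that of the mitotic motors was 1.08. With 1 array left out, the median ran from 0.13 (without control replicate 1) to 0.39 (without control replicate 2) for fibroblast markers and from 0.10 to 0.61, without the same arrays, for macrophage markers. It ran from -0.31 (without G2-EC-KO replicate 1) to 0.12 (without G2-EC-KO replicate 2) for pericyte and smooth muscle markers, and from 0.17 (without control replicate 1) to 0.89 (without G2-EC-KO replicate 2) for erythroid and platelet markers. The part of these cells in the values of the mitotic motors was not tested. In total RNA of a cell preparation, more dividing cells and more kinesin RNA per cell cannot be told apart. Control arrays took positions 1 and 2 and G2-EC-KO arrays positions 3 and 4 of 1 slide, so position and group cannot be told apart either.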

How the data were processed

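Total RNA of 4 samples was hybridised to 1 Agilent array each, design 014868, annotated on mm9 per the file headers. Feature Extraction is given as 10.7.3.1 in those headers and as 10.5 in the submitters' processing notes. The deposited spot intensity values were background-subtracted and detrended within arrays per the file headers. Outlier spots (87 to 101 per array) were left out, log2 was taken, each array's 75th percentile subtracted, and spots of a probe averaged. Probes well above background on at least 2 of 4 arrays were fitted on group with limma 3.58.1 in R 4.3.3 (two-sided, Benjamini-Hochberg over 26893 probes), after the fit was tested on simulated data. The number of arrays limits the precision. An exact permutation test of 2 against 2 cannot go below 0.333. Scanner files hold no mean spot signal, so normexp (offset 50) used the median signal. The value table that the authors deposited, intensity values equal to median signal minus local background plus 16, served as an alternative. Symbols came by accession from RefSeq, GRCm38.p6, for 26925 of 41174 probes.

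Members, gene lists and motifs were chosen with earlier results of these data known, so no test over a list is given. All kinesins were accounted for, and list members were named from those with the highest signal, up to 4 a list, except Cenpe, Kifap3, Klc1 to Klc4 and Gata2, named by rule. Racgap1, Cit, Bub1, Mcm3, Dync1i1, Dynlt1b, Ccr2, Mapk8ip2, the endothelial markers and markers below background were named after their values were seen. Alternatives were other scalings, filters and variance models, the value table, the replicate block, the mean over probes, and each array left out. Leaving out or moving Kifc5b and leaving out Kif2c were added after seeing the data.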

Additional observations from a re-analysis of the deposited data

How the results depend on the processing

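Mitotic motors stayed above 0 in all 128 values under 13 other settings, and none of these passed an adjusted p of 0.05. The class median was 0.91 with normexp and 1.08 to 1.91 with 1 array left out. Its distance from the other kinesins was 0.93 with normexp and 1.08 to 2.02 with 1 array left out. Probes past an adjusted p of 0.05 numbered 1 in the limma fit as reported, 2 with normexp, quantile normalization or median centring, 0 without a filter, with the filter on all 4 arrays or with an intensity trend, and 0 to 8 with 1 array left out, with 8 only without control replicate 1. With the replicate block 0 probes passed, 10 of 10 mitotic motors were higher and 2 other kinesins passed an unadjusted p of 0.05. Across the planned settings that kept all 4 arrays, 7 to 10 mitotic motors were higher at an unadjusted p under 0.05 in limma. This count was 9 in the fit as reported, and the filter on all 4 arrays left 8 of them to test. Other kinesins past that p in either direction numbered 1 to 2 across these settings. The deviations of same-numbered arrays correlated at 0.068 across probes. With so few arrays this cannot decide whether same-numbered samples were prepared as pairs, and the numbers are used only as names. Other kinesins past an unadjusted p of 0.05 in the limma fit numbered 2 without a filter, where 27 were tested. The shares of all genes past that p were not computed under these other settings. With 1 array left out, the median of the other kinesins ran from -0.11 to -0.0038. Of 259 values of single other kinesins, 18 turned sign, at 10 genes: Kif26a was -0.024 with normexp, -0.018 with quantile normalization and -0.017 with the deposited table, Kifc3 -0.0027 with quantile normalization and -0.040 with the mean over probes, where Kif3a was 0.076 and Kif1c -0.036. With 1 array left out, Kif5a ran from -0.68 to 0.13, Kif26a from -0.17 to 0.18, Kifc3 from -0.13 to 0.16, Kif7 from -0.20 to 0.016, Kif3c from -0.040 to 0.22, Kif3b from -0.13 to 0.43, Kif5b from -0.27 to 0.014, Kif1c from -0.0055 to 0.17 and Kif21b from -0.15 to 0.042. The cause of these turns was not tested. Signal over background limits Kif2c, which was not well above it in control, and Kif15, which was not on 1 control array.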
